A study of Mus musculus with 2 samples.

Results

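Imprinted genes, which are expressed mainly from the copy inherited from 1 parent, were described across the cell groups of mouse gastruloids. A fixed list of 34 imprinted mouse genes was looked up by symbol among the 32285 genes of the files. All 34 were present with at least 10 UMIs (unique molecular identifiers, each 1 captured RNA molecule) over both libraries, so none was left out. They fell into 17 chromosomal domains on 10 chromosomes, and 14 of them lay on chromosome 7. The label holds for the list as textbook imprinted genes, but the counts do not separate the parental alleles, so allele use was not tested.

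Imprinted genes are often clustered, and most clusters are switched by a stretch of DNA that is methylated on 1 parental allele only. Many encode growth regulators, such as the growth factor Igf2 and the growth-limiting Cdkn1c, Phlda2 and Grb10, and others are long noncoding RNAs, such as H19, Meg3, Airn and Kcnq1ot1. Paternally expressed members tend to promote growth and maternally expressed ones to restrain it. The marks are kept through early development by the zinc-finger protein ZFP57 with its partner TRIM28 and by the methyltransferase DNMT1, and they can be lost or gained in cultured embryonic stem cells.

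The data came from somitic gastruloids, aggregates of embryonic stem cells that form a posterior axis with somites. The source was a mouse E14 triple-reporter line in which the endogenous Zeb2 gene, encoding a transcriptional repressor, carried an HA-FKBP12F36V degron tag. Both libraries came from that tagged line. Aggregates of 300 cells received 3 µM CHIR99021, a WNT pathway activator, after 48 h and 10% Matrigel at 96 h, and about 32 gastruloids were pooled for each library. The dTAG-13 library received 100 nM dTAG-13, which recruits the tagged protein for degradation, at 72 h and 96 h, and the other library is labelled untreated. The series text names DMSO as the control treatment, so whether the control library received the vehicle is not settled by the labels. Each condition is 1 library of pooled gastruloids, so no difference between the libraries has a replicate check or a test, and all intervals cover counting error only. An effect of the compound on cells without the tag was not analysed here.

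After filtering, 6231 untreated and 6688 dTAG-13 cells were kept, with medians of 20073 and 20207 UMIs per cell and 140019633 and 151601709 UMIs in all. The libraries shared 14 cell barcodes. Zeb2 RNA was at 67.9 CPM (its UMIs scaled to those of the library, 95% Poisson interval 66.5 to 69.3) untreated and at 94.6 CPM (93.0 to 96.1) with dTAG-13. The tag acts on the protein, so this RNA does not check the depletion. Cells were put into 10 gates, each by at least 2 UMIs of a defining gene and by the first that applied. The gates were Zfp42 (naive pluripotency), Sox17 and Foxa2 (endoderm and node), Sfn (an epithelial gene), Pim2 (a kinase of pluripotent cells), Meox1 (somites), Tbx6 (presomitic mesoderm), Sox2 with T (axial progenitors), Sox2 without T (neural) and T without Sox2 (posterior mesoderm). A gate is a range and not a cell type: in the untreated library 97 of the 524 Zfp42 gate cells had exactly 2 Zfp42 UMIs, and 449 cells outside had exactly 1. Of those 524 cells, 506 also met another gate, as did 736 of 765 in the dTAG-13 library. Of 6 separate markers per gate, all 6 were at least 2-fold higher than in the other cells in both libraries in the Zfp42, Sfn, Meox1, Foxa2 and Sox17 gates, 5 in the T and Tbx6 gates, 4 in the Sox2+T gate, 3 in the Pim2 gate and 2 in the Sox2 gate. Blood genes summed to 0.600 and 0.838 CPM and trophoblast genes to 2.87 and 3.34 CPM in the 2 libraries. Endothelial genes summed to 24.4 and 25.1 CPM, visceral endoderm genes to 48.6 and 61.2 CPM, and germ cell genes to 32.9 and 64.1 CPM, and their part in the results was not tested.

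The cell makeup differed between the libraries. Shares of cells in the untreated and then the dTAG-13 library were 3.31% and 15.9% for the Sfn gate, for the Pim2 gate 2.57% and 8.12%, and the Zfp42 gate 8.41% and 11.4%. The Meox1 gate held 14.0% and 8.37%, the Tbx6 gate 6.69% and 1.58%, and the Sox2 gate 27.0% and 16.9%. A difference in a whole library can therefore come from more or fewer cells of a kind as well as from more or less RNA per cell, and levels are given below both for the whole library and within gates.

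The promoters of 6 members are shown because the results below turn on them. Snrpn and Peg12 were the members past 1.5-fold between the libraries, and Meg3 was higher with dTAG-13 in each of the 10 gates. Mest and Plagl1 were lower in the whole library, and Peg3 followed the somite gate. Each is the 300 bases from 250 before to 50 after a RefSeq transcription start (GRCm38.p6), 5′ to 3′ on the gene's strand. For members with several starts, the start whose window held the most CpG pairs was taken. Capitals mark the hexamer TGCCGC or its reverse complement GCGGCA, the methylated form of which ZFP57 binds.
Meg3, chr12:109540746-109541045, plus strand: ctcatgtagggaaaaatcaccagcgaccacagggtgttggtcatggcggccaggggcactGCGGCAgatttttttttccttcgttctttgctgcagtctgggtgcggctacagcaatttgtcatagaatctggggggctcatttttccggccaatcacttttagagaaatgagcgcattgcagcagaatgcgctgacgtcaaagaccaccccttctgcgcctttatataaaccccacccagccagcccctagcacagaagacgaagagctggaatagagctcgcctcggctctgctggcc
Snrpn, chr7:60005150-60005449, minus strand: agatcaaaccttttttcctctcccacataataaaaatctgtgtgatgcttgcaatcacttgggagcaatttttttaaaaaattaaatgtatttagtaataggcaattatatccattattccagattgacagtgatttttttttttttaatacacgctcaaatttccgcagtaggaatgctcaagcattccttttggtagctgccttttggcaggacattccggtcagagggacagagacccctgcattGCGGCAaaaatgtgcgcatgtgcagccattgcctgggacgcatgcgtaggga
Peg12, chr7:62464461-62464760, minus strand: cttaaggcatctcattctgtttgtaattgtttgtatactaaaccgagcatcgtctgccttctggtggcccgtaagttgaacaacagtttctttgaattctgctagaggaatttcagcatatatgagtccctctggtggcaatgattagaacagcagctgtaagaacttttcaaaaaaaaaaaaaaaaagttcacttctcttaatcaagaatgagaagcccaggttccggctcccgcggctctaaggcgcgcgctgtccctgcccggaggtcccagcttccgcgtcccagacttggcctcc
Mest, chr6:30737800-30738099, plus strand: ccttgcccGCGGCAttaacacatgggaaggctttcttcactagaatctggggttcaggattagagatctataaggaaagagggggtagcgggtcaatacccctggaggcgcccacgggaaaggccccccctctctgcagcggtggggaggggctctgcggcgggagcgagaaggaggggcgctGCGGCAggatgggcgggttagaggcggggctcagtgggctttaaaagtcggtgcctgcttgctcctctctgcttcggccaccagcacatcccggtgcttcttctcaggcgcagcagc
Peg3, chr7:6730370-6730669, minus strand: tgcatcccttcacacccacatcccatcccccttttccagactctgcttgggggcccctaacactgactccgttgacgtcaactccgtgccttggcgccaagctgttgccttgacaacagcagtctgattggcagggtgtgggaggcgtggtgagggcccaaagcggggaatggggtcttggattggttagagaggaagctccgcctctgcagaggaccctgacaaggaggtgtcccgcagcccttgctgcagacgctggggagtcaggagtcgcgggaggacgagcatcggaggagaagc
Plagl1, chr10:13090582-13090881, plus strand: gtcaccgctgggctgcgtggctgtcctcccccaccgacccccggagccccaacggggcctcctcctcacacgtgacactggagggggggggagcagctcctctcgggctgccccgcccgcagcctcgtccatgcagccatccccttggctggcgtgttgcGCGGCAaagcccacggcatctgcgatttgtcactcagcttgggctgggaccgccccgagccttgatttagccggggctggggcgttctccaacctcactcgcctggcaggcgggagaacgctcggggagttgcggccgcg
Mest held 2 such hexamers, Meg3, Snrpn and Plagl1 1 each, and Peg3 and Peg12 0. Of the 28 members with a promoter entry, 9 (32.1%) held at least 1, against 3813 (11.6%) of all 32851 promoter entries in the table. Members also had more CpG pairs, a median of 17 per window against 7, and the start was chosen for CpG content, so the shares are not matched for it. A match is a match of letters and not a site. The windows of Snrpn, Mest, Peg3 and Plagl1 lie at genes whose differentially methylated region sits at the promoter, while that of the Meg3 domain lies upstream of the gene.

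The first comparison asked where the members were expressed. The most frequent pattern was a low level in the Zfp42 gate: 10 of 34 members were at least 2-fold lower there than in all other cells in both libraries, against 4.51% of all genes. These were H19, Igf2, Airn, Peg3, Usp29, Mest, Ndn, Peg12, Nnat and Gnas. No member was at least 2-fold higher in that gate, against 5.38% of all genes. These shares are over the 17476 genes with at least 10 UMIs in each library. With 1 CPM added to each level, a gene under 1 CPM in the other cells cannot be called lower. As 27 of the 34 members were at 5 CPM or more in at least 1 library, shares over all genes are not matched for level. Among the 31 members with at least 100 UMIs in each library, the Zfp42 gate was the lowest in both libraries for 12, against 23% of genes at that depth. The same highest gate appeared in both libraries for 22 of the 31, against 46.4% of genes, and the same lowest gate for 19, against 46.3%. In 26 the highest gate was at least 2-fold above the lowest in both libraries, against 36.9%. The 2 libraries are separate pools that differ in treatment and are not replicates, so agreement between them is a count and not a test.

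**Figure D1:**
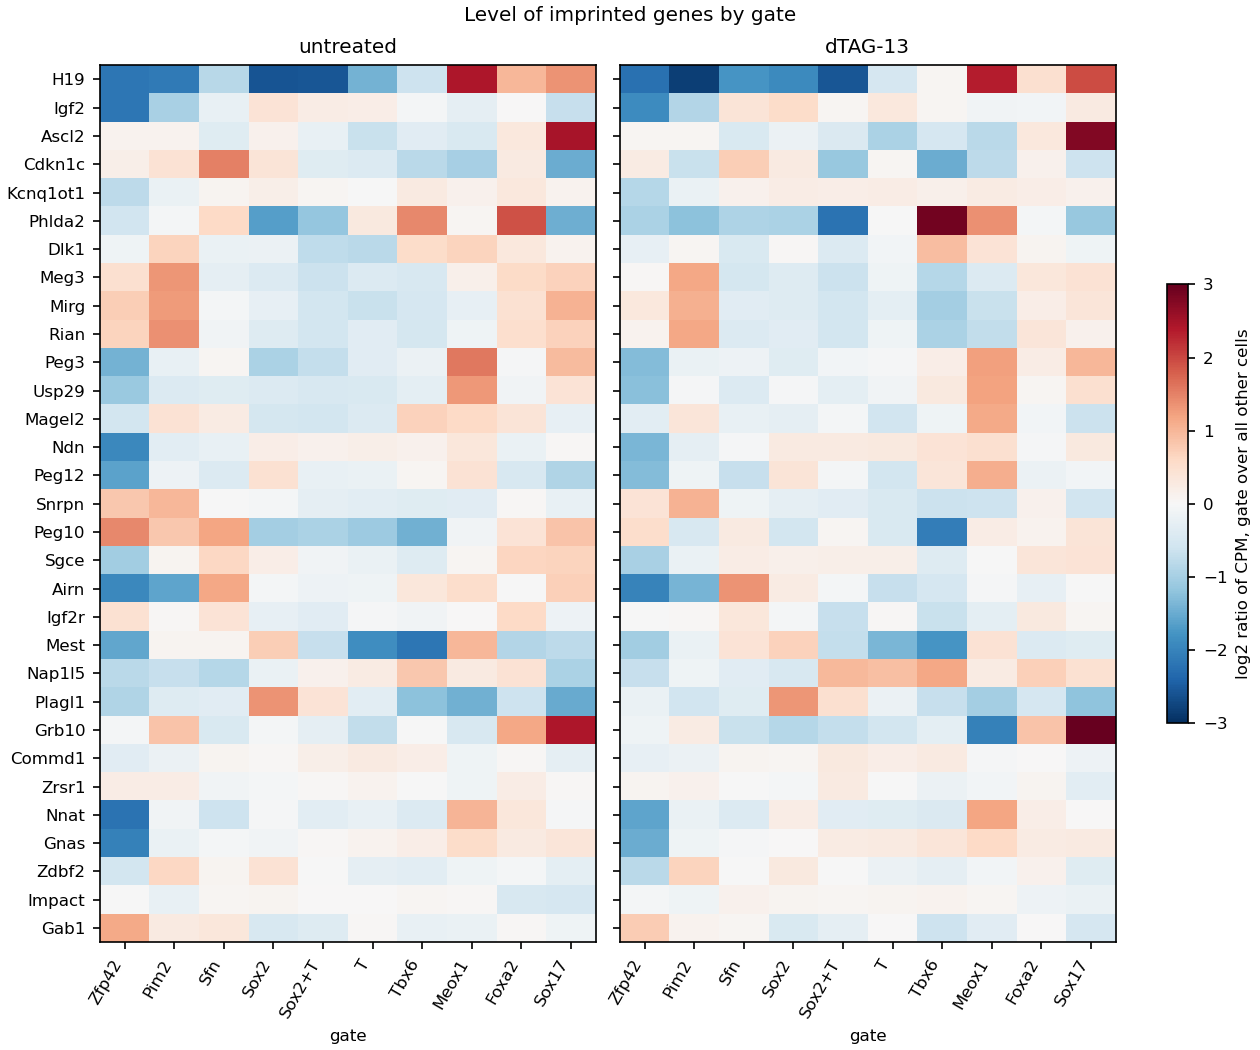
Log2 ratio of the level (CPM) in each gate over all other kept cells, for the 31 members with at least 100 UMIs in each library (rows, ordered by domain) and the 10 gates (columns), untreated library left and dTAG-13 library right. The Zfp42 column is mostly blue in both libraries, H19 is red in the Meox1 and Sox17 columns, and Meg3, Rian and Mirg are red together in the Pim2 column.

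The Meox1 gate stood at the other end. H19, Peg3, Usp29 and Nnat were at least 2-fold higher there in both libraries, 4 of 34 members against 1.37% of genes. Peg3 encodes a zinc-finger protein of the growth and p53 pathways, and Usp29, encoding a deubiquitinase, is transcribed in the opposite direction from the same promoter region (chr7:6703892-6730431 and chr7:6730578-6967219, mm10). Peg3 was at 1250 CPM in untreated and 1160 CPM in dTAG-13 Meox1 cells, and at 215 and 250 CPM in Zfp42 cells. Usp29 followed with 48.1 and 51.0 CPM in the Meox1 gate and 10.8 and 10.7 CPM in the Zfp42 gate. The Sox17 gate was second for both genes, with Peg3 at 1030 and 1080 CPM. Nnat, which encodes a membrane proteolipid known from neurons, was at 207 and 236 CPM in the Meox1 gate and at 26.4 and 42.1 CPM in the Zfp42 gate. Its highest gate was not the neural Sox2 gate, where it stood at 114 and 132 CPM. Plagl1, a zinc-finger regulator of the cell cycle, was at least 2-fold lower in the Meox1 gate in both libraries, the 1 member against 3.74% of genes.

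H19, a noncoding RNA that is abundant in embryonic mesoderm and endoderm (chr7:142575529-142578143), had a 19.5-fold range over the gates in the untreated and a 26.8-fold range in the dTAG-13 library. It was highest in Meox1 cells at 226 and 296 CPM, then in Sox17 cells at 172 and 284 CPM and Foxa2 cells at 134 and 107 CPM. In the Sox2+T, Sox2, Pim2 and Zfp42 gates it lay between 11 and 22.6 CPM in both libraries. With each cell thinned to 5000 UMIs, 53.1% and 55.7% of Meox1 cells held an H19 UMI, against 5.71% and 6.32% of Sox2 cells (unthinned shares are higher). Igf2, the paternally expressed growth factor next to it (chr7:142650766-142666816), did not share this pattern. It was highest in the Sox2 gate at 13.3 and 9.89 CPM, lowest in the Zfp42 gate at 1.84 and 1.41 CPM, and at 8.88 and 6.38 CPM in Meox1 cells. Igf2 was detected in 3.98% of thinned untreated cells with an H19 UMI (exact binomial interval 2.87 to 5.36) and in 4.81% of those without (4.24 to 5.43). With dTAG-13 the order was the opposite, 4.59% (3.41 to 6.02) with H19 and 3.23% (2.78 to 3.73) without, and the intervals overlapped in both libraries. These shares pool the cells of all gates. In the Sox2 gate Igf2 was found in 6.25% of untreated cells with H19 and 5.81% of those without, and with dTAG-13 in 12.7% and 4.84%. In the Meox1 gate the shares were 2.61% and 3.94% untreated, and 3.22% and 2.83% with dTAG-13. Intervals overlapped in each of these comparisons.

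**Figure D2:**
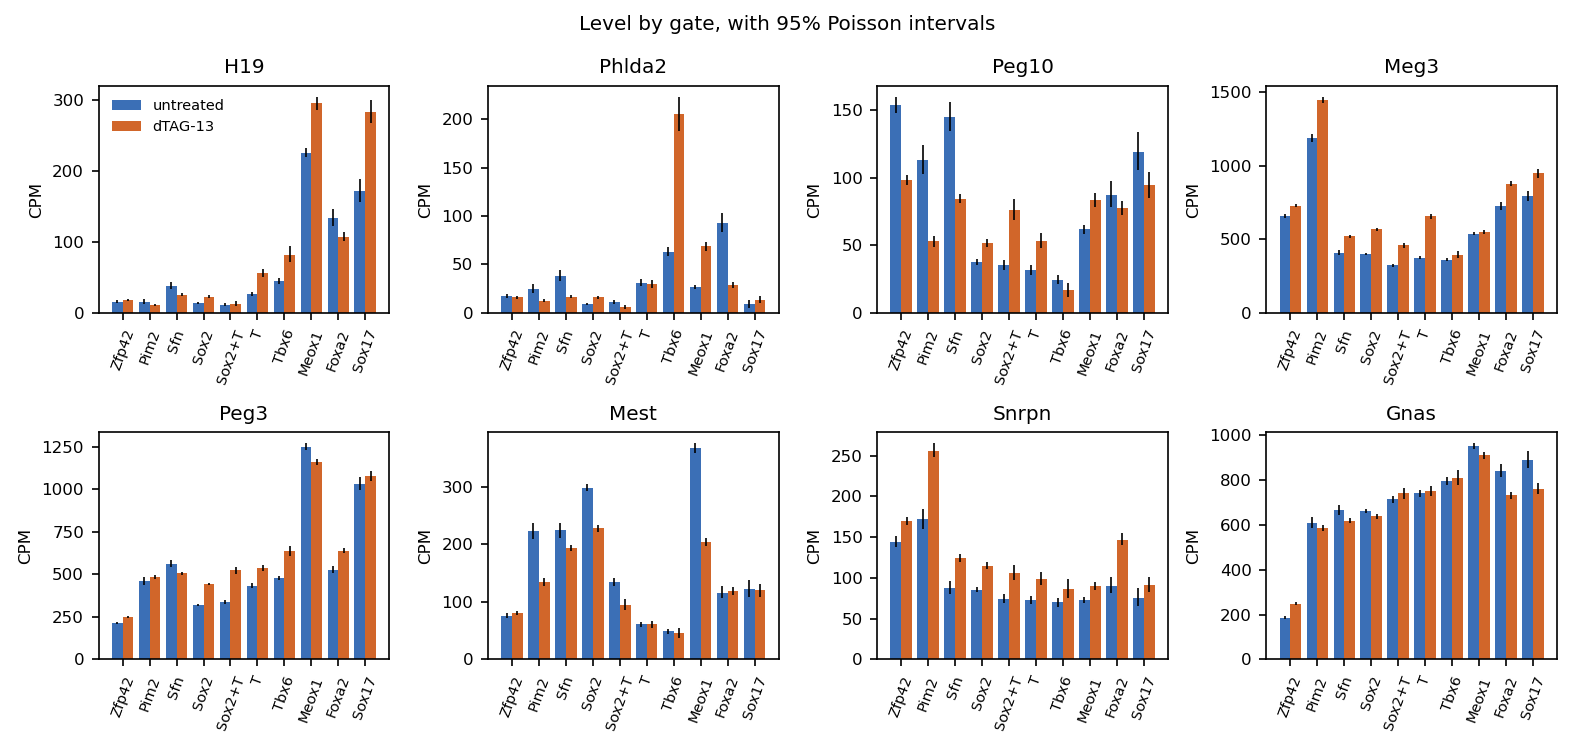
Level in CPM of 8 members in each of the 10 gates, untreated library in blue and dTAG-13 library in orange, with 95% Poisson intervals (counting error only) as vertical lines. H19 and Peg3 are highest in the Meox1 and Sox17 gates, Meg3 and Snrpn in the Pim2 gate, and Phlda2 in the Tbx6 gate of the dTAG-13 library at 205 CPM.

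The noncoding RNAs of the Dlk1-Dio3 domain kept together. Meg3 (chr12:109541001-109571726), Rian (chr12:109603940-109661716) and Mirg (chr12:109729764-109749460) lie in a row on the same strand and are maternally expressed, and Rian and Mirg host small nucleolar RNAs and microRNAs. All 3 were at least 2-fold higher in the Pim2 gate in both libraries, against 0.429% of genes, and no other member was. Meg3 was at 1190 and 1450 CPM there, Rian at 212 and 254 CPM, and Mirg at 35.0 and 41.9 CPM. Their lowest gates were the Sox2+T or T gate in the untreated and the Tbx6 gate in the dTAG-13 library, with Meg3 at 325 CPM in untreated Sox2+T cells and 395 CPM in dTAG-13 Tbx6 cells. H19 and Airn were at least 2-fold lower in the Pim2 gate, 2 members against 1.15% of genes. The paternally expressed genes of the domain were near the limit of detection. Dlk1, a transmembrane regulator of differentiation, was at 1.49 and 1.15 CPM in the whole libraries, and Rtl1, a retrotransposon-derived gene, at 0.414 and 0.627 CPM.

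Within gates, Rian was detected more often in cells that also held Meg3. Among thinned Zfp42 gate cells of the untreated library, 71.3% held a Meg3 UMI, and Rian was found in 46.4% of these (interval 41.2 to 51.6) and in 12.7% of the cells without Meg3 (7.80 to 19.1). The dTAG-13 library gave 71.3% with Meg3, and Rian in 45.4% (41.2 to 49.7) and 10.0% (6.40 to 14.8). Mirg, in the same Zfp42 cells, was found in 12.3% of untreated cells with Meg3 and 2% of those without. Rian was more frequent in cells with a Meg3 UMI in each of the 10 gates of both libraries, with the widest intervals in the Pim2 gate, where only 4 untreated cells lacked a Meg3 UMI. Over all cells the Rian shares were 34.8% and 15.1% in the untreated and 43.0% and 16.2% in the dTAG-13 library. Cells are not replicates of a condition, and no gate is known to lack these RNAs, so the share that free RNA contributes was not measured.

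**Figure D3:**
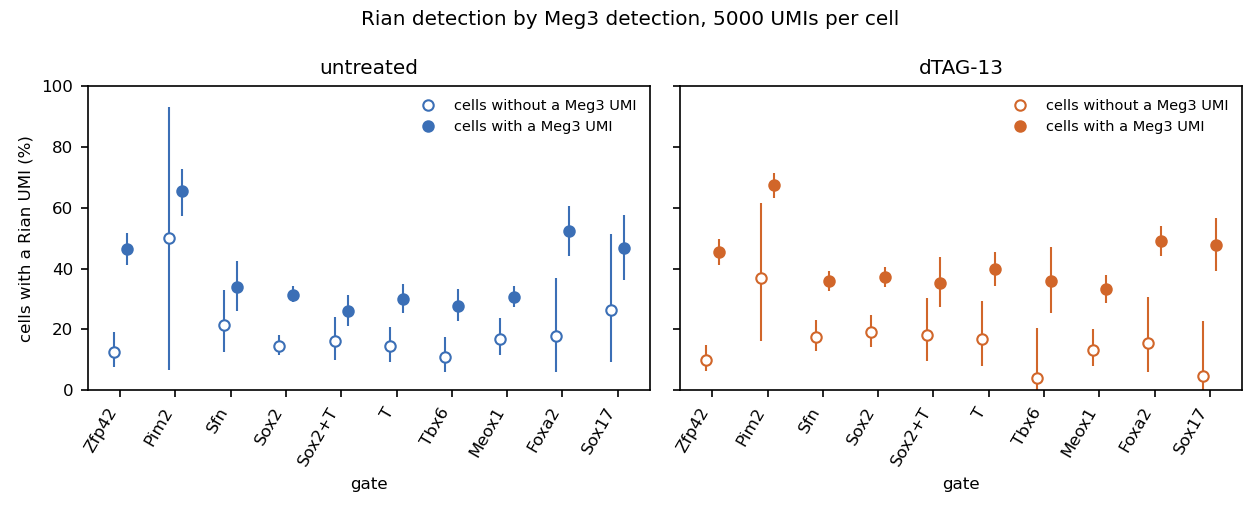
Percent of cells with a Rian UMI among cells with (filled) and without (open) a Meg3 UMI, in each gate, with every cell thinned to 5000 UMIs; vertical lines are 95% exact binomial intervals. Filled points lie above open points in every gate of both libraries, for example 46.4% over 12.7% in untreated Zfp42 cells.

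Neighbours in other domains gave mixed results. Over all thinned untreated cells, Usp29 was found in 13.2% of cells with Peg3 and 6.29% of those without, and with dTAG-13 in 12.1% and 6.11%. Airn was found in 5.76% of cells with Igf2r (3.86 to 8.22) and in 6.01% of those without (5.40 to 6.66), and with dTAG-13 in 9.13% and 8.69%. Ndn was found in 37.3% of cells with Snrpn and 41.8% of cells without, but with dTAG-13 in 34.4% and 34.9%. Peg12 was found in 10.3% of untreated cells with Ndn and 7.70% of those without, and with dTAG-13 in 6.59% and 5.24%. For Sgce the shares were 15.8% with Peg10 and 12.6% without, and with dTAG-13 16.2% and 14.3%. Zrsr1 was found in 7.53% of untreated cells with Commd1 and 8.18% of those without, and with dTAG-13 in 8.82% and 9.57%. Depth was the same in every thinned cell, but cells of different gates are pooled in these shares.

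The Kcnq1 domain held members of wide and of narrow range over the gates. Phlda2, a pleckstrin-homology protein that restrains placental growth (chr7:143501545-143503150), was highest in the Foxa2 gate of the untreated library at 92.6 CPM and in the Tbx6 gate of the dTAG-13 library at 205 CPM. It was the member at least 2-fold higher in the Tbx6 gate in both libraries, 1 of 34 against 0.698% of genes. In the Sox2+T gate, where H19 and Phlda2 were the 2 members at least 2-fold lower (1.38% of genes), it was at 11.6 and 5.82 CPM. Cdkn1c, the cyclin-dependent kinase inhibitor p57, was highest in the Sfn gate at 15.7 and 9.53 CPM. Kcnq1ot1, the paternal noncoding RNA that silences the domain (chr7:143203458-143296549), varied far less: from 339 CPM in Zfp42 cells to 690 CPM in Foxa2 cells of the untreated library, a 2.04-fold range, and 1.97-fold in the dTAG-13 library. Ascl2, a transcription factor of trophoblast and stem cells, was at 10.8 and 13.5 CPM in the Sox17 gate and at 2 CPM or less in each of the other gates. The Sox17 gate's trophoblast list summed to 11.6 and 14.3 CPM, and Ascl2 is on that list. Slc22a18, a transporter gene, was at 0.164 and 0.330 CPM.

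The Sox17 gate held 3 members at least 2-fold higher in both libraries, H19, Ascl2 and Grb10, against 2.67% of genes. Phlda2 and Plagl1 were at least 2-fold lower, against 2.64%. Grb10, an adaptor that dampens insulin signalling (chr11:11930508-12038683), was at 24.1 CPM in untreated and 41.6 CPM in dTAG-13 Sox17 cells, and next highest in the Foxa2 gate at 9.91 and 9.83 CPM. The 5 highest cells gave 96.6% of its UMIs in the untreated and 58.7% in the dTAG-13 Sox17 gate, so the level rests on few of the 109 and 158 cells. Endothelial markers in this gate summed to 69.0 and 23.9 CPM, and their part in these levels was not tested. No member was at least 2-fold higher or lower in the Foxa2 gate in both libraries, against 0.967% and 0.807% of genes.

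Members of the remaining domains differed in where they were highest. Airn, the paternal noncoding RNA that overlaps and silences Igf2r, was highest in the Sfn gate at 29.4 and 38.8 CPM, the 1 member at least 2-fold higher there (1.08% of genes), while 0 members were lower (1.12%). It was at 3.00 and 4.52 CPM in the Zfp42 gate. Igf2r, the clearance receptor for IGF2, varied only 1.93- and 2.01-fold, with its highest level in the Foxa2 gate untreated (24.2 CPM) and in the Sfn gate with dTAG-13 (26.3 CPM). Plagl1 (chr10:13060504-13131694) was the member at least 2-fold higher in the Sox2 gate, at 50.4 and 38.2 CPM, against 0.189% of genes, and H19 the 1 that was lower (1.88%). Mest, a hydrolase-like gene of mesoderm (chr6:30723547-30748465), was highest in the Meox1 gate untreated, at 367 CPM with the Sox2 gate at 298 CPM, and in the Sox2 gate with dTAG-13, at 228 CPM with the Meox1 gate at 203 CPM. Its lowest gate in both was Tbx6, at 48.7 and 45.5 CPM. Mest and Peg10 were at least 2-fold lower in the Tbx6 gate (2.4% of genes), and Mest also in the T gate (1.14%). No member was at least 2-fold higher in the T gate (0.492%) or in the Sox2+T gate (0.24%). Peg10, a retrotransposon-derived gene needed in placenta, was highest in the Zfp42 gate at 154 and 98.4 CPM and lowest in the Tbx6 gate at 24.7 and 16.7 CPM. Its neighbour Sgce, encoding epsilon-sarcoglycan, was highest in the Sox17 gate at 46.1 and 41.1 CPM and lowest in the Zfp42 gate at 14.4 and 16.4 CPM.

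Some members were highest in the Pim2 or Zfp42 gate or hardly varied. Snrpn, a splicing protein gene (chr7:59982495-60140219), was highest in the Pim2 gate at 172 and 256 CPM and next in the Zfp42 gate at 144 and 170 CPM. Its domain neighbours Ndn and Peg12 were lowest in the Zfp42 gate, Ndn at 30.0 and 37.6 CPM and Peg12 at 5.86 and 4.64 CPM. Magel2, encoding a ubiquitin ligase partner, was at 1.18 and 0.910 CPM in the whole libraries. Gab1, a receptor-signalling adaptor, was highest in the Zfp42 gate at 40.1 and 37.7 CPM, while Zdbf2, a zinc-finger gene, was highest in the Pim2 gate at 387 and 445 CPM. Gnas, the stimulatory G-protein subunit, was at 185 and 249 CPM in the Zfp42 gate and at 584 CPM or more in each of the other gates. Impact, a translation regulator, varied 1.48- and 1.24-fold, Commd1, a copper and NF-kB regulator, 1.47- and 1.41-fold, and Zrsr1, a splicing factor gene inside Commd1, 1.26- and 1.53-fold. Nap1l5, a nucleosome assembly gene, was at 2.48 and 1.72 CPM in the whole libraries, and Zim1, a zinc-finger gene of the Peg3 domain, at 0.121 and 0.231 CPM.

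The second comparison asked how the members differed with dTAG-13. A ratio below is the log2 of the dTAG-13 level divided by the untreated level, with 1 CPM added to each. That addition draws the ratios of low genes toward 0, and the shares over all genes below are not matched for level. In the whole libraries 1 of 34 members, Snrpn, was at least 1.5-fold higher, against 2.32% of genes, and 1, Peg12, was at least 1.5-fold lower, against 0.832%. With edgeR TMM or DESeq2 scaling these counts were 0 higher and 3 lower (Peg12, Plagl1 and Igf2). The ratio was above 0 for 21 members and below 0 for 13. The median over the members was 0.13, against 0.02 over all 19470 genes with at least 10 UMIs. The counting interval included 0 for 3 members. The 13 members that are maternally expressed by textbook knowledge had a median of 0.19 and the 21 paternally expressed ones a median of -0.01, a description of a list that holds several genes of the same domains.

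**Figure D4:**
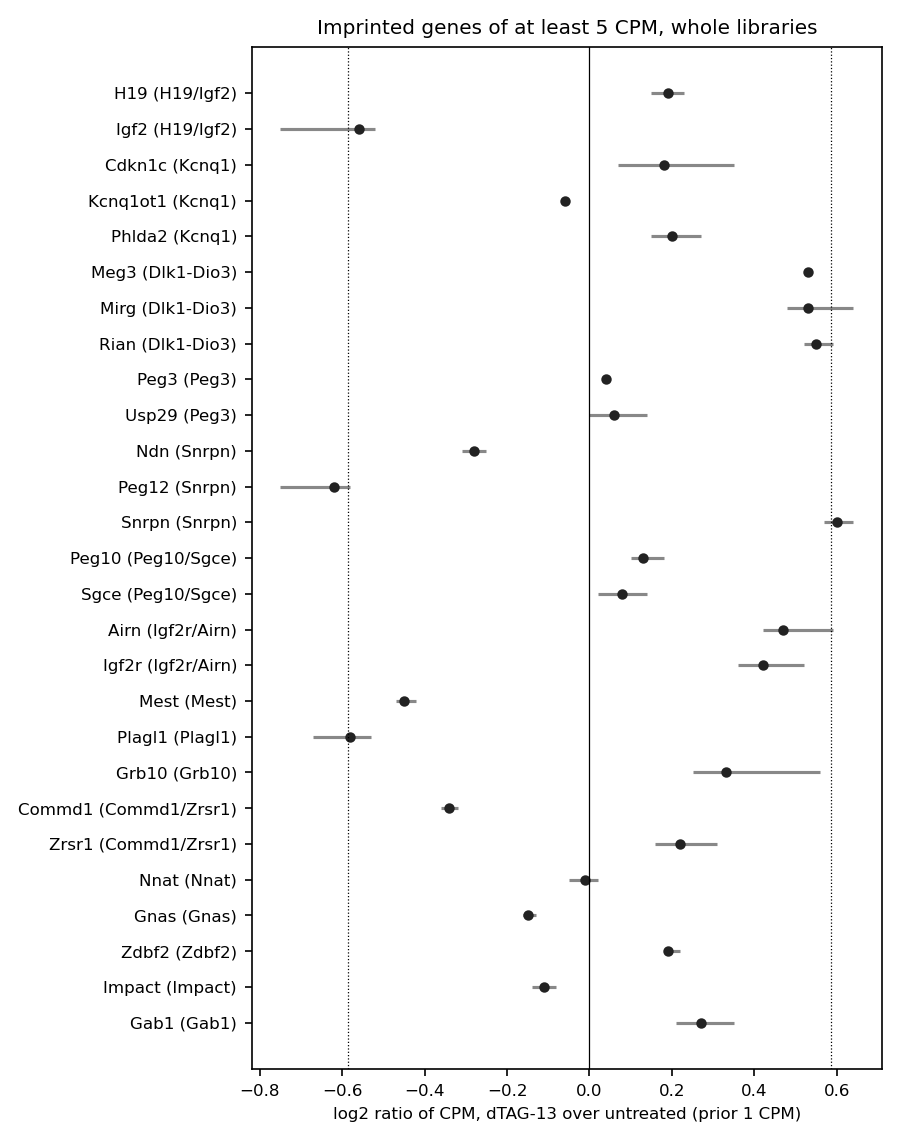
Log2 ratio of CPM, dTAG-13 over untreated library, for the 27 members of at least 5 CPM, with the domain in brackets; horizontal lines are 95% exact counting intervals, which cover counting error only, and dotted lines mark 1.5-fold. Snrpn at 0.60 lies past the upper dotted line and Peg12 at -0.62 past the lower one.

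The Snrpn domain had members at both ends. Snrpn was at 88.7 CPM (87.2 to 90.3) untreated and 135 CPM (133 to 137) with dTAG-13, a ratio of 0.60. Snurf, which shares transcripts with it, was listed at 0 UMIs, and the same-strand overlapping gene Gm38393 at 4151 over both libraries. Peg12, a retrotransposed signalling-regulator gene (chr7:62461871-62464510), was at 18.5 CPM (17.8 to 19.2) and 11.7 CPM (11.1 to 12.2), a ratio of -0.62. Ndn, a growth-suppressor gene of the MAGE family, was at 108 and 88.9 CPM, a ratio of -0.28. All 3 are paternally expressed, but the ratio was above 0 for Snrpn and below 0 for the other two. Snrpn was higher in all 10 gates, from 0.24 in the Zfp42 gate to 0.70 in the Foxa2 gate, with the counting interval above 0 in each. Among the 28 members with at least 10 UMIs in every gate it was the 1 with all 10 intervals above 0, against 0.372% of genes. With thinned cells gated at 1 UMI, the ratio of Snrpn in the Sox17 gate was -0.21. Peg12 was lower in 9 gates, down to -0.97 in the T gate, and at 0.17 in the Sox17 gate, but with other gating it was 0.27 in the Foxa2 gate, 0.08 in the Tbx6 gate and 0.05 in the Meox1 gate. Snhg14, the noncoding RNA that runs on from Snrpn, was picked after its values were seen and stood at 27.7 and 33.4 CPM, a ratio of 0.26.

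The maternal RNAs of the Dlk1-Dio3 domain had similar ratios. Meg3 was at 494 CPM (490 to 497) and 714 CPM (709 to 718), a ratio of 0.53. Rian was at 84.5 and 124 CPM, a ratio of 0.55, and Mirg at 14.5 and 21.5 CPM, a ratio of 0.53. Dlk1 had a ratio of -0.21 and Rtl1 of 0.20, both at low counts. Meg3 was higher in all 10 gates, as was Snrpn among the 28 members (2 members, against 5.02% of genes). Its ratio was 0.80 in the T gate, where it stood at 377 and 656 CPM, 0.50 in the Sox2 gate, and 0.03 in the Meox1 gate. With cells of a single gate its ratio was -0.05 in the Foxa2 gate and -0.22 in the Tbx6 gate, and with thinned cells -0.06 in the Meox1 gate. The whole-library ratio was also split into a part from the gates' shares of UMIs and a part from levels within gates. A gate can hold different mixes of cells in each library, so the within-gate part does not separate level from cell makeup. For Meg3 the parts were 0.19 and 0.33, and for Snrpn 0.18 and 0.42.

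Mest and Plagl1 were lower. Mest was at 211 CPM (208 to 213) and 154 CPM (152 to 156), a ratio of -0.45 with parts of -0.06 from shares and -0.39 within gates. It was at 367 CPM in untreated and 203 CPM in dTAG-13 Meox1 cells, a ratio of -0.85, and at 223 and 135 CPM in Pim2 cells, a ratio of -0.72. With cells of a single gate the Pim2 ratio of Mest was -0.23. In the Zfp42, T and Foxa2 gates its ratios were 0.08, 0.00 and 0.02, but -0.20 and -0.70 in the first 2 with gates at 1 UMI and -0.27 in the Foxa2 gate with thinned cells. The antisense neighbour Copg2, which overlaps it, was at 26.8 CPM in both libraries. Plagl1 was at 27.7 and 18.3 CPM, a ratio of -0.58, and was lower in 9 gates, with the Zfp42 gate at 0.09. In 4 of the 9 the sign changed with the gating: Tbx6 was 1.26 and Sox17 0.80 with thinned cells, and Meox1 was 0.45 and Foxa2 0.43 with cells of a single gate. Igf2 was at 10.7 and 6.91 CPM, a ratio of -0.56, and was lower in 9 gates, with the Sox17 gate at 0.39. In 3 of the 9 its sign changed: Sfn was 1.81 with thinned cells, Pim2 0.17 with gates at 1 UMI per 10000 UMIs, and Foxa2 0.02 with gates at 1 UMI.

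H19 had ratios of both signs across the gates. Its level was 68.6 CPM (67.3 to 70) and 78.3 CPM (76.9 to 79.7), a ratio of 0.19. It was higher with dTAG-13 in the T gate, at 26.3 and 55.8 CPM, a ratio of 1.06, in the Tbx6 gate at 0.85, in the Sox17 gate at 0.73 and in the Sox2 gate at 0.66. Under other gating their lowest values were 0.53 in the T gate and 0.38 in the Sox17 gate, with thinned cells. With gates at 3 UMIs they were 0.57 in the Tbx6 gate and 0.61 in the Sox2 gate. In the dTAG-13 Tbx6 gate 5 cells gave 45.2% of the H19 UMIs. H19 was lower in the Sfn gate at -0.58, the Pim2 gate at -0.46 and the Foxa2 gate at -0.32, but each of these 3 changed sign with the gating: Sfn was 0.59 with thinned cells, Pim2 0.92 with gates at 3 UMIs, and Foxa2 0.27 with cells of a single gate. In the untreated library 5 cells gave 56.8% of the H19 UMIs of the Sfn gate and 72.3% of those of the Pim2 gate. In the T gate the 5 highest cells gave 27.7% and 39.2% of its UMIs, and endothelial markers summed to 16.1 and 64.0 CPM there. The part of other cell types in the H19 ratio was not tested.

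Within gates, 314 pairs of a gate and a member had at least 10 UMIs. Of these, 23 were at least 1.5-fold higher with dTAG-13, against 4.66% of all gene and gate pairs, and 25 at least 1.5-fold lower, against 2.99%. Pairs of a gate share their cells and pairs of a gene share that gene, so they are not independent. The interval lay apart from 0 in 21 of the 23 and 20 of the 25. Of the 23 higher pairs, 17 had a value under all 6 other ways of gating or filtering the cells. The sign held under all 6 in 15 of these and the 1.5-fold size in 6. Of the 25 lower pairs, 19 had all 6 values, the sign held in 15 and the size in 4. The other pairs had 3 to 5 values each.

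Counted by gate, the calls were uneven. The Pim2 and Sfn gates held more lower than higher members. In the Pim2 gate 1 member was higher, Airn, against 5.45% of genes, and 7 of 32 were lower, among them Peg10, Phlda2 and Cdkn1c, against 3.83%. In the Sfn gate 0 were higher (4.46% of genes) and 5 of 32 lower (3.51%), led by Phlda2, Peg12 and Peg10. In the Zfp42 gate 1 of 34, Nnat, was higher (1.56%) and 1, Peg10, lower (0.68%). The T gate held more higher than lower members, as it did over all genes, with 6 of 29 higher (7.76%), led by H19, Mirg and Meg3, and 1 lower, Peg12 (2.28%). Its higher members included Meg3, Rian and Mirg, which share a domain, and Peg10, whose ratio was -0.24 with gates at 1 UMI. The Sox17 gate had 5 of 29 higher (5.98%), among them Grb10, H19 and Igf2r, and 0 lower (4.84%), and it is the gate with the fewest untreated cells. The other gates had both kinds: in the Sox2 gate 3 of 33 higher (3.44%) and 2 lower (0.992%), in the Sox2+T gate 2 of 30 higher (7%) and 3 lower (3.34%), and in the Tbx6 gate 3 of 31 higher (4.77%) and 1 lower (5.61%). In the Meox1 gate 1 of 32 was higher, Phlda2 (1.71%), and 2 lower, Grb10 and Mest (1.13%), and in the Foxa2 gate 1 of 32 was higher, Snrpn (5.57%), and 3 lower (4.84%). The difference between gates was not tested. The Airn ratio in the Pim2 gate, 0.70, was -0.75 with thinned cells.

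**Figure D5:**
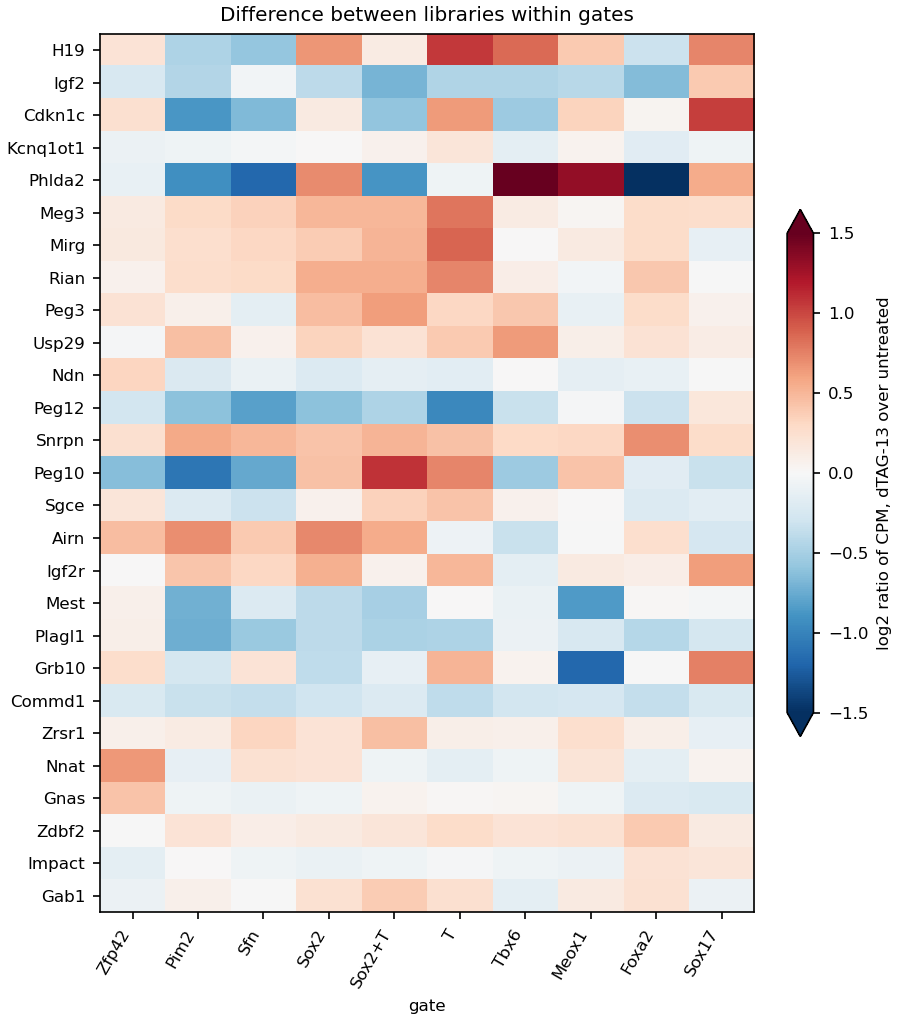
Log2 ratio of CPM, dTAG-13 over untreated, within each of the 10 gates (columns) for the 27 members of at least 5 CPM (rows, ordered by domain); colours stop at 1.5 in either direction. Snrpn and Meg3 are above 0 in each gate and Commd1 below 0 in each, while Phlda2 runs from -1.67 in the Foxa2 gate to 1.68 in the Tbx6 gate.

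Phlda2 had the widest spread of within-gate ratios. It was at 63.3 CPM in untreated and 205 CPM in dTAG-13 Tbx6 cells, a ratio of 1.68, and at 26.9 and 68.8 CPM in Meox1 cells, a ratio of 1.32. In the opposite direction it was at 92.6 and 28.5 CPM in Foxa2 cells, a ratio of -1.67, and at 38.5 and 16.5 CPM in Sfn cells, a ratio of -1.18. These 4 pairs kept the 1.5-fold size under every alternative gate. In the whole libraries it was at 25.7 and 29.8 CPM, a ratio of 0.20. In thinned Tbx6 cells Phlda2 was detected in 18.2% and 35.8%. The dTAG-13 Tbx6 gate held 106 cells against 417, and 5 cells gave 33.0% of its Phlda2 UMIs. In untreated Foxa2 cells 5 of 181 gave 60.8% of the UMIs, the highest of them 82. Phlda2 ratios in 4 other gates changed sign with the gating. That of the Pim2 gate was -0.92 but 1.03 with gates at 1 UMI, and that of the Sox2+T gate -0.88 but 0.62 with thinned cells. In the T gate it was -0.07 but 1.17 with gates at 1 UMI, and in the Zfp42 gate -0.11 but 0.25 with gates at 3 UMIs.

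Peg10 and Grb10 also had opposite ratios in different gates. Peg10 was at 35.5 and 76.3 CPM in the Sox2+T gate, a ratio of 1.08, and at 113 and 53.0 CPM in the Pim2 gate, a ratio of -1.08 that was -0.13 with gates at 1 UMI. It was also lower in the Sfn gate at -0.77, or -0.37 with gates at 1 UMI, and the Zfp42 gate at -0.64, or -0.25 with thinned cells. In the T gate its ratio was 0.73, but -0.24 with gates at 1 UMI. For the whole library the share part of Peg10 was 0.33 and the within-gate part -0.21, which left a ratio of 0.13. Grb10 was at 24.1 and 41.6 CPM in the Sox17 gate, a ratio of 0.76, and at 2.80 and 0.676 CPM in the Meox1 gate, a ratio of -1.18. That Meox1 ratio rests on few counts, with Grb10 found in 39 of 872 untreated and 9 of 560 dTAG-13 cells. Cdkn1c, at 5.23 and 6.06 CPM in the whole libraries, was at -0.87 in the Pim2 gate, -0.66 in the Sfn gate and 0.64 in the T gate, and these were -0.32 with gates at 1 UMI, -0.05 with thinned cells and 0.42 with gates at 3 UMIs. Its Sox2+T ratio of -0.59 was 0.53 with gates at 1 UMI per 10000 UMIs of the cell.

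Commd1 and Zrsr1 are nested genes on opposite strands with opposite ratios. Commd1 (chr11:22896136-22982382) was at 239 CPM (236 to 242) and 189 CPM (187 to 191), a ratio of -0.34. It was lower in all 10 gates, the 1 member of 28, against 3.56% of genes, and the ratios lay close together, from -0.38 to -0.21. The interval was below 0 in each gate, against 0.487% of genes. Zrsr1 (chr11:22972005-22976496) was at 16.3 and 19.2 CPM, a ratio of 0.22, and was higher in 9 gates. Its sign changed in 4 of them: Tbx6 was -0.85 and Foxa2 -0.55 with thinned cells, and Sfn was -0.19 and Pim2 -0.14 with cells of a single gate. The sources do not say whether counting used strand, and the part of reads from the overlap in these ratios was not tested. The same holds for Igf2r and Airn, which both were higher, at 15.9 and 21.5 CPM with a ratio of 0.42, and at 13.1 and 18.6 CPM with a ratio of 0.47.

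The other members differed less in the whole libraries. Kcnq1ot1 was at 561 and 538 CPM, a ratio of -0.06. Peg3 was at 538 and 553 CPM, a ratio of 0.04 that was -0.01 with DESeq2 scaling, but within gates it ranged from -0.15 in the Sfn gate to 0.63 in the Sox2+T gate. Usp29 was at 23.2 and 24.3 CPM and Peg10 at 66.1 and 72.6 CPM. Gnas was at 696 and 629 CPM, a ratio of -0.15, and at 0.43 in the Zfp42 gate, but 0.02 there with gates at 1 UMI. Nnat was at 117 and 115 CPM, a ratio of -0.01, and at 0.65 in the Zfp42 gate, or 0.15 with gates at 1 UMI. Impact was at 117 and 108 CPM, Zdbf2 at 258 and 295 CPM, Gab1 at 20.2 and 24.5 CPM, Sgce at 29.1 and 30.7 CPM, and Grb10 at 4.05 and 5.36 CPM. The ratios of the members without one given above lay between -0.36 and 0.33.

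Genes of the same pathway outside the list gave few calls. Of 44 other imprinted genes, 41 were found in the files by symbol and 39 had at least 10 UMIs. Nespas was not found by symbol and is not counted here, but its gene identifier was in the files with 16797 UMIs over both libraries. At least 1.5-fold higher was 1 of the 39, Cobl, an actin nucleator, at 18.7 and 30.2 CPM with a ratio of 0.66, and 0 were lower, with a median of 0.01. Pde10a, a phosphodiesterase, was at -0.44, Sfmbt2, a Polycomb-related gene, at 0.40, and Ddc, a decarboxylase, at 0.29. Of 20 genes that keep, write or erase imprints, 1 was at least 1.5-fold higher and 0 lower, with a median of 0.06. That gene was Dnmt3b, a de novo DNA methyltransferase, at 75.8 CPM (74.4 to 77.2) and 176 CPM (174 to 178), a ratio of 1.20. In the Meox1 gate, its lowest in both libraries, Dnmt3b was at 46.8 and 64.5 CPM. Dppa3, which protects maternal marks in the zygote, was at 21.6 and 30.4 CPM, and the demethylation enzymes Tet1 and Tet2 had ratios of 0.31 and 0.25. The Zfp42 gate was the highest for each of these in both libraries. There Dppa3 was at 190 and 167 CPM, Tet1 at 202 and 214 CPM, and Tet2 at 33.6 and 31.3 CPM. Methylation was not measured in these samples.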

How the data were processed

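Single-cell RNA libraries (10x Genomics 3' chemistry) of 2 samples were analysed, 1 untreated and 1 with dTAG-13. The authors deposited UMI counts per gene and cell barcode, made with Cell Ranger 6.1.2 against mm10 per the submitters' processing notes. No batch label separates or joins the libraries. Barcodes with under 1000 genes or over 10% mitochondrial UMIs were removed (630 of 7276 untreated, 693 of 7873 dTAG-13). The automatic doublet threshold of Scrublet (scanpy 1.11.5) marked 1 and 0 barcodes, so the highest scores were removed at 0.8% per 1000 barcodes (424 and 496). Counts were summed per library and gate and scaled to CPM. Intervals are 95% exact Poisson (levels), exact conditional (ratios, no prior) or exact binomial (shares). The calls are 1.5-fold between libraries and 2-fold between a gate and all other cells in both libraries, for genes with at least 10 UMIs. The ratio code was checked on simulated data. Members of at least 5 CPM are given with both levels and their highest and lowest gates, the others by level or range. Within gates, pairs past 1.5-fold are counted and the 3 highest and lowest may be named. Of the other lists, up to 4 genes with the largest absolute ratio among those of at least 5 CPM in 1 library are named. Members, lists and gates were chosen with earlier results of these data known. Gene positions are from GENCODE M21 (32235 of 32285 identifiers matched) and promoters from RefSeq GRCm38.p6, where 6 members have no entry. Alternatives used edgeR 4.0.16 and DESeq2 1.42.0 for scaling factors only.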

Additional observations from a re-analysis of the deposited data

Results flagged for a closer look

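For 4 members the difference between the libraries had opposite directions in 2 gates, each at least 1.5-fold and with a counting interval apart from 0. Nap1l5, at 1.0 in the Sox17 gate and -0.63 in the Sox2 gate, is not among them because its Sox17 interval included 0. The log2 ratio of Phlda2 was 1.68 in the Tbx6 gate and -1.67 in the Foxa2 gate. That of Grb10 was 0.76 in the Sox17 gate and -1.18 in the Meox1 gate. That of Peg10 was 1.08 in the Sox2+T gate and -1.08 in the Pim2 gate. That of Cdkn1c was 0.64 in the T gate and -0.87 in the Pim2 gate. The 1.5-fold size did not hold under every way of gating for Peg10 in the Pim2 gate (-0.13 with gates at 1 UMI) or for Cdkn1c in the T gate (0.42 with gates at 3 UMIs) and the Pim2 gate (-0.32 with gates at 1 UMI). With 1 library per condition the difference between gates was not tested. Few cells carried some of these values: 5 cells gave 96.6% of the Grb10 UMIs of the untreated Sox17 gate and 60.8% of the Phlda2 UMIs of the untreated Foxa2 gate. Grb10 was found in only 9 of 560 dTAG-13 Meox1 cells.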

How the results depend on the processing

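No paired analysis was possible because each condition is 1 library, and for the same reason no replicate could be left out. In the whole libraries the count of members at least 1.5-fold higher, 1, was 0 with a prior of 5 CPM, with edgeR TMM scaling, with DESeq2 size factors and with cells thinned to 5000 UMIs. The count at least 1.5-fold lower, 1, was 0 with a prior of 5 CPM and 3 with TMM scaling and with DESeq2 size factors. Within gates the counts of 23 higher and 25 lower pairs were 13 and 12 with a prior of 5 CPM, which shrinks low genes by construction. They stayed within 1.5 times of the reported counts under each of the other alternatives, among them a minimum of 50 UMIs in the gate (21 and 21), which was chosen after seeing the data. The median ratio of the members lay between 0.05 and 0.13 under all alternatives. Of 204 single member values under alternatives, 161 moved by no more than the distance from the middle of their counting interval to its end. Another 39 moved by more and 4 changed sign: Peg3 to -0.01 with DESeq2 size factors, and, with thinned cells, Ascl2 to -0.03, Usp29 to -0.06 and Nnat to 0.03. The cause was not tested. With cells meeting 1 gate only, the Zfp42 and Sox17 gates held under 50 cells and gave no value. The 34 members in gates of 106 to 1685 cells include pairs of 10 UMIs, where depth limits the ratio.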

Other observations

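Among the other imprinted genes, some had a leading gate of their own, picked here after their values were seen. Asb4, an ankyrin-repeat gene, was at 94.0 CPM in untreated and 81.0 CPM in dTAG-13 Sox17 cells, and at 0.176 and 0.208 CPM in the Sox2+T gate. Sfmbt2 was at 52.2 and 41.0 CPM in the Zfp42 gate. Cobl was at 120 and 78.8 CPM in the Foxa2 gate, so that its lower level in that gate with dTAG-13 stands beside a higher level in the whole library. Smoc1, a secreted calcium-binding protein gene, was at 49.4 and 69.0 CPM in the Meox1 gate.

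The spread of counts between cells differed among members at equal depth. In cells thinned to 5000 UMIs, where a variance-to-mean ratio of 1.00 is what random sampling of a constant level gives, Peg3 had 6.41 in the untreated and 4.76 in the dTAG-13 library, Phlda2 3.75 and 4.38, H19 3.50 and 5.20, and Meg3 3.44 and 4.50. Zrsr1, at 1.02 and 0.997, Commd1, at 1.06 and 1.02, and Igf2r, at 1.03 and 1.05, lay close to 1.00. The ratio rises with a gene's mean count, so it orders genes of similar level only.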
